A study of Caenorhabditis elegans with 2 samples.

Results

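Of the reproducible MDL-1 peaks of worms at larval stage L4, which form the authors' optimal list, 348 (31.2%, exact 95% interval 28.5% to 34%) held a GA repeat near the summit and no E-box. A GA repeat here is a stretch of at least 3 consecutive GA dinucleotides on either strand, and the E-box is the palindrome CACGTG. Both were read in the 101 bp window that runs 50 bp to each side of the summit given by the authors. The other 767 peaks of that list comprised 59 with both sequences, 155 with an E-box and no GA repeat, and 553 with neither. Among the 28885 weaker candidate regions of the pooled list, 2126 carried the same sequence, and the members were set beside these. The presence of the repeat, the absence of the E-box and a place in the optimal list define the 348 peaks and are not results about them.

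The data are chromatin immunoprecipitation followed by sequencing (ChIP-seq) of whole Caenorhabditis elegans at the L4 stage, with sonicated chromatin, in 1 group of 2 biological replicates. Each replicate came from strain OP355, whose genotype is unc-119(tm4063) III with the integrated transgene wgIs355, and worms of pooled sex were used without a stated age. The labels name mdl-1 as the target of the insertion and of the antibody, whereas a note on the same samples has a GFP-FLAG tag at the C terminus of KLU-1, and the peak lists cannot settle which protein carried the tag. Both replicates carry the same unc-119 mutation and the same insertion, no untagged strain or input library was analysed here, and the values are averages over all tissues of the animal. Peaks were called per replicate and on pooled data, and the optimal list holds the pooled peaks kept after the irreproducible discovery rate, a measure of agreement between replicate rankings. Read depth is unknown because the lists carry no read totals, so the exact (Clopper-Pearson) intervals cover the counting of peaks only.

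MDL-1 is a Mad-like basic helix-loop-helix leucine zipper protein that pairs with the Max-like protein MXL-1, and Max partners are known for binding E-boxes. GA repeats are a different kind of sequence: in Drosophila they are bound by the zinc finger protein GAGA factor, which acts in opening promoter chromatin. In C. elegans the zinc finger protein EOR-1 has been linked to GA-rich sequence, and GA repeats recur in promoters and at sites where many factors give ChIP-seq peaks. This is background, and no binding of those proteins was measured here.

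The windows of 8 members show what the class comprises, from RefSeq sequence of build ce11 (WBcel235), plus strand, 5′ to 3′. Capitals mark each run of alternating G and A, or T and C on the opposite strand, that holds the repeat, as far as it lies inside the window. The run at gpb-1, 18 bp long in full, is cut by the left edge of its window. Each name is followed by its place. The mtm-3 and nipi-3 windows are the strongest members, eef-1A.2 a strong promoter peak, and nhr-88 has 3 separate runs. The affl-2 window is mostly 1 run of 53 bp, the longest run at zer-1 has 24 bp, M106.3 ranked far higher in replicate 1, and gpb-1 far higher in replicate 2.
mtm-3 chrIII:3801477-3801577: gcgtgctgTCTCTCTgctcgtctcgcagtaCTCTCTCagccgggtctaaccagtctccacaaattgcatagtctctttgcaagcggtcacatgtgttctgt
nipi-3 chrX:15607619-15607719: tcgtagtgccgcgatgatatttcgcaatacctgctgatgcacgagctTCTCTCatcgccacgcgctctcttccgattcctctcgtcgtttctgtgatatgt
eef-1A.2 chrX:7823180-7823280: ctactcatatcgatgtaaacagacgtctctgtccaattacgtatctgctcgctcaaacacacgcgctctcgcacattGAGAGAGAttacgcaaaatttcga
nhr-88 chrII:2974047-2974147: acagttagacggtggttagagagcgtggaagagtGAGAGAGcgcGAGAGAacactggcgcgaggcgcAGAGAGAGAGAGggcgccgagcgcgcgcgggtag
affl-2 chrIII:433071-433171: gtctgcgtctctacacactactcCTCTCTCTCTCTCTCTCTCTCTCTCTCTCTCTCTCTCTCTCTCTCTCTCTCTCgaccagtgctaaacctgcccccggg
zer-1 chrIII:888119-888219: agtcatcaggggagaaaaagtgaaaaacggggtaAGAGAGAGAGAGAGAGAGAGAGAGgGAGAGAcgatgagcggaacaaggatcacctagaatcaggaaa
M106.3 chrII:10862221-10862321: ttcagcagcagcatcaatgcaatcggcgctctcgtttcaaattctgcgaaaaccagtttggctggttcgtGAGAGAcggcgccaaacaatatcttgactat
gpb-1 chrII:11746970-11747070: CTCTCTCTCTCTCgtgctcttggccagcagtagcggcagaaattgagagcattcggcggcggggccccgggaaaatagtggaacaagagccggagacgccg
The mtm-3 and nipi-3 windows contain short repeats set among further short CT pieces, while 1 uninterrupted run takes up most of the affl-2 window.

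Signal is the value that the authors' peak caller wrote for each region, on a scale of its own in every list, so that only ranks are comparable between lists. The strongest member lay near mtm-3, which encodes a myotubularin-type lipid phosphatase (III, summit 1060 bp upstream of the 5′ end, intergenic). Its pooled signal was 442, and its rank was 6 in the pooled data and in replicate 1, and 4 in replicate 2. The next peak, 300 bp upstream of nipi-3 (X), a Tribbles-like pseudokinase gene of the innate immune response, had a signal of 381 and ranked 8 in replicate 1 and 9 in replicate 2. Its repeat covered the summit and was at the minimum length of 6 bp. An intron peak 1667 bp downstream of the 5′ end of the nuclear receptor gene nhr-19 had a signal of 362 and ranked 10 in each replicate. The replicates thus placed the 3 strongest members almost alike.

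Among the 20 members of highest signal, 10 had a summit in a promoter window, which reaches 1000 bp before and 200 bp past any annotated 5′ end of a protein-coding transcript. They include nipi-3, srh-2 (a chemoreceptor gene, summit in a 5′ UTR, signal 266), eef-1A.2 (translation elongation factor 1A, 241), cbp-1 (a CBP/p300-type acetyltransferase, 235), puf-9 (a Pumilio-type RNA-binding protein, 211), zfp-3 (211), C09E9.1 (203), ain-1 (a GW182-type protein of microRNA silencing, 175) and Y43F8B.2 (171). The tenth is a peak shared by ifet-1 and rps-1 (signal 185). ifet-1 encodes an eIF4E-binding repressor of translation and rps-1 a ribosomal protein. Distal peaks of the same strength had their nearest 5′ ends at pigx-1 (252), F09A5.3 (234), ZK899.6 (215), nhr-1 (199, 8088 bp upstream), lin-42 (192, a Period-like gene of moulting rhythm), nhr-88 (192), pqn-41 (184) and F42C5.9 (174). Replicate ranks of the 20 peaks were mostly close, and the ratio of the ranks was largest at C09E9.1 (34 in replicate 1 and 180 in replicate 2), eef-1A.2 (19 and 93) and puf-9 (84 and 19).

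The class as a whole had ordinary strength within the optimal list. Its median pooled signal was 72.4 (range 48.2 to 442, interval of the median 68.5 to 76.3), against 94.5 for peaks with both sequences, 82.8 for E-box peaks without the repeat and 68.6 for peaks with neither. The median over all other optimal peaks was 72.1, so that the difference from them lay inside the interval of the members' median. The 100 strongest peaks included 22 members (6.32% of the members) and 34 peaks with an E-box, namely 13 of the 59 with both sequences and 21 of the 155 with the E-box alone. At the limit of the list, the lowest members had signals of 48.2 (nearest gene T08G5.3) and 48.4 (cdk-7), and the strongest candidates outside it with the same sequence had 48.2 (cri-1) and 48.0 (R08D7.7).

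Along the pooled ranking the share of the GA class was 22% in the first 100 ranks, 32% in the next 200, 34.3% in the 300 after those and 30.9% in the last 515 of the optimal list. Past the list it was 21.6% up to rank 2000, 13.8% up to rank 5000 and 8.36% up to rank 10000. It was 5.79% up to rank 20000 and 5.25% in the last 10000 ranks. The E-box had its highest share, 34%, in the first 100 ranks and 13.4% in the last 515 of the list. Since members must lack the E-box, their share is bound to be lower where E-boxes are frequent. Counted without regard to the E-box, GA repeats were in 35% of the first 100 ranks, 39% of the next 200, 40% of the 300 after those and 33.8% of the last 515, with overlapping intervals. In windows centred on every base of the nuclear genome the class made up 5.10%, and in windows centred 200 bp upstream of protein-coding 5′ ends 7.94%. Up to rank 20000 the interval of each band's share lay above the genome's share, and that of the last 10000 ranks (4.82% to 5.71%) included it. The interval of the band that ends at rank 10000 (7.61% to 9.16%) included the 7.94% of windows upstream of genes. Mean G and C content declined along the same ranks, 52.7% in the first 100 and 33.1% in the last 10000.

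**Figure D1:**
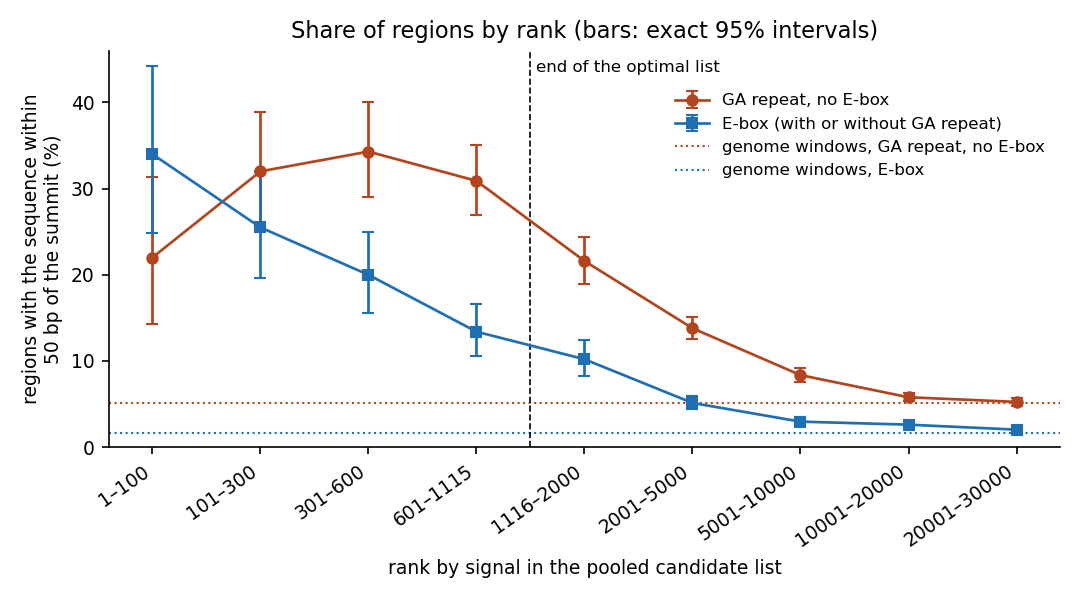
Share of pooled candidate regions with a GA repeat and no E-box, and with an E-box, within 50 bp of the summit (y axis, percent, bars are exact 95% intervals) by rank of signal (x axis). GA repeat peaks reach 34.3% in the band that ends at rank 600 and E-box peaks 34% in the first 100 ranks; dotted lines give the shares in genome windows, 5.10% and 1.67%.

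Each replicate's own list gave a like share. The strongest regions of a replicate are here as many as there are optimal peaks. By its own summits, those of replicate 1 included 356 of the class (31.9%), against 7.55% of its other 28885 regions. In replicate 2 the class made up 323 of the strongest regions (29.0%), against 7.11% of the rest. The replicates thus differed far less from each other than the strongest regions did from the rest, although 2 replicates of 1 group allow no test. The first 100 ranks held 24 regions of the class in replicate 1 and 24 in replicate 2.

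Whether a candidate region entered the optimal list can be read beside its sequence. Of the 2474 pooled candidates with a GA repeat and no E-box, 348 (14.1%, interval 12.7% to 15.5%) were kept in the optimal list, where the rule itself places them, against 3.72% of all 30000 candidates. Candidates with the E-box alone were kept in 16.7% of cases and those with neither sequence in 2.09%. Base composition moved with the same outcome: 0.358% of candidates with under 35% G and C were kept and 29.3% of those with 55% or more. Within each band of base composition the GA class was kept more often than candidates with neither sequence: 1.62% against 0.278% below 35% G and C, 9.58% against 3.08% at 40% to 45%, 20.1% against 7.49% at 45% to 50%, and 45.5% against 21.0% at 55% or more. The sequence and the place in the list both belong to the definition of the members, so these shares describe the class and nothing is read from them. The part of base composition was not tested.

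**Figure D2:**
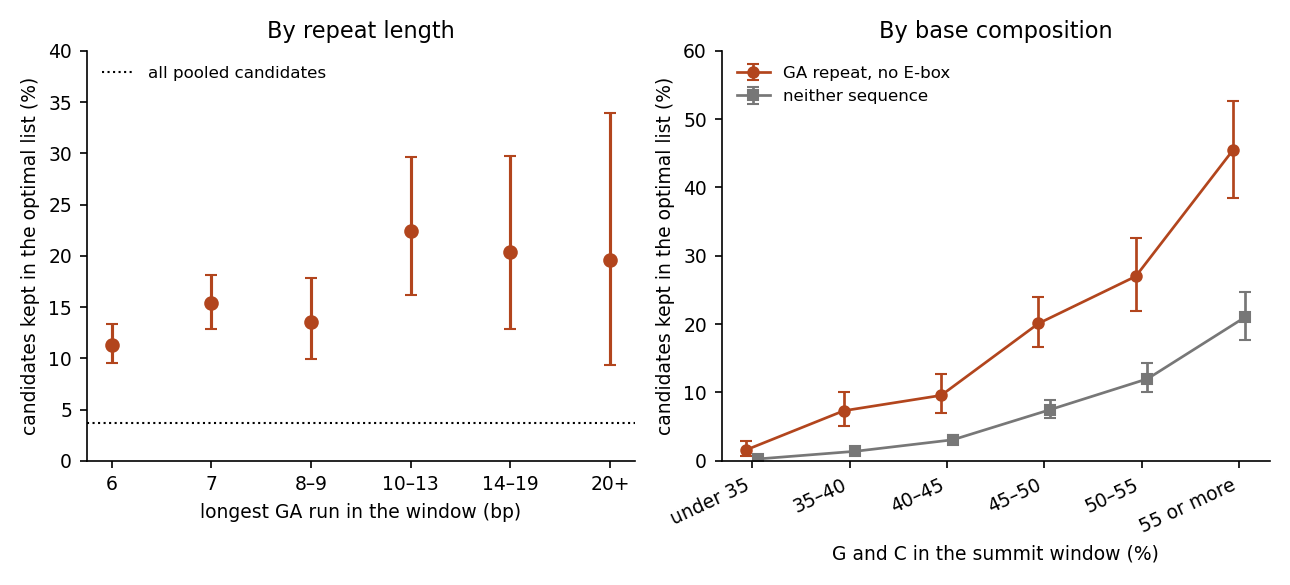
Percentage of pooled candidates kept in the optimal list (y axis, bars are exact 95% intervals). Left, candidates with a GA repeat and no E-box by the length of their longest run, between 11.3% at 6 bp and 22.4% at 10 to 13 bp, with the 3.72% of all candidates dotted; right, candidates with a GA repeat and no E-box and candidates with neither sequence by G and C content, the GA class higher in each band.

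Most repeats were short. The longest run of alternating G and A in a window had exactly the 6 bp minimum in 124 members (35.6%), 7 bp in 117 (33.6%) and 8 to 9 bp in 42 (12.1%). It had 10 to 13 bp in 36 members, 14 to 19 bp in 20 and 20 bp or more in 9, with runs followed past the window's edge. The median was 7 bp, as it was among the weaker candidates with the same sequence. Runs of 10 bp or more were in 65 members (18.7%, interval 14.7% to 23.2%), against 11.3% (9.97% to 12.7%) of those weaker candidates. Windows with 2 or more separate runs made up 26.4% of the members (21.9% to 31.4%), against 13.7% (12.3% to 15.2%). Uninterrupted purine tracts around the run reached 12 bp or more in 36.8% of the members and in 30.6% of the weaker candidates. Long and multiple runs were thus more frequent in the members than in the weaker regions, while the median length was the same. In the 59 peaks with both sequences, runs of 10 bp or more were in 15.3% (7.22% to 27.0%) and 2 or more runs in 20.3% (11.0% to 32.8%). Both intervals include the members' shares, so neither trait was shown to be particular to the members.

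Of the 10 longest runs, all but the one at vps-25 belonged to peaks of middling or low rank. The longest, 68 bp or 33 GA units, began 26 bp from a summit in an intron of aakg-1, a gene for an AMP-activated kinase gamma subunit (III, signal 75.1, rank 817 in replicate 1 and 438 in replicate 2). A 63 bp run covered the summit at Y24D9A.6 (IV, signal 54.9) and a 53 bp run that at affl-2 (III, signal 64.0). Shorter ones followed at gsa-1, the G protein alpha-s gene (37 bp, signal 67.8), vps-25, an ESCRT-II gene (29 bp, 148), daf-16, the FOXO factor of insulin signalling (28 bp, 83.6), F07H5.7 (25 bp, 49.1), zer-1 (24 bp, 48.6), fbxa-83 (22 bp, 49.7) and gei-8, a corepressor gene (19 bp, 65.0). Only vps-25 among these 10 had a signal above 100, with rank 111 in replicate 1 and 140 in replicate 2. The run at fbxa-83 lay 44 bp from a summit that ranked 719 in replicate 1 and 19236 in replicate 2.

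By run length, the share of candidates kept in the list was uneven, and longer repeats did not have a higher signal inside it. The repeat and the place in the list both define the members, so the kept shares are description only. Candidates with a 6 bp run were kept in 11.3% of cases (interval 9.50% to 13.3%), those with 7 bp in 15.4%, with 8 to 9 bp in 13.5%, with 10 to 13 bp in 22.4%, with 14 to 19 bp in 20.4% and with 20 bp or more in 19.6% (9.36% to 33.9%). Mean G and C content of these candidates was 40.2% in the 6 bp bin and 46.5% in the bin of 20 bp or more, and its part was not tested. Counted from the genome, 592 of 58266 runs of at least 3 units (1.02%) lay in an optimal peak's window, 0.748% of 6 bp runs and 4.53% (2.50% to 7.49%) of runs of 20 bp or more. Median signals of the members were 74.4 at 6 bp, 71.7 at 7 bp, 73.8 at 8 to 9 bp, 75.5 at 10 to 13 bp, 60 at 14 to 19 bp and 64.0 at 20 bp or more. Across the 348 members, which share libraries and an entry threshold on signal, Spearman's rho with signal was -0.147 for run length and 0.0965 for the number of runs. In the 59 peaks with both sequences these values were -0.162 and -0.001. Over the 2126 weaker candidates with the same sequence, rho had the other sign for run length, 0.167, and was 0.147 for the number of runs. By the number of runs, median signals were 70.6 for 256 members with 1 run, 77.1 for 72 with 2, 90.4 for 14 with 3 and 87.2 for 6 with 4.

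Long repeats also sat elsewhere relative to genes. Of the 65 members with a run of 10 bp or more, 20 (30.8%, interval 19.9% to 43.4%) had a summit in a promoter window, against 149 of 283 (52.7%, 46.7% to 58.6%) with shorter runs. Their summits lay a median of 1279 bp from the nearest 5′ end, against 810 bp, and were in introns in 38.5% of cases, against 27.2%. Mean G and C content was nearly equal, 49.4% against 49.8%. By the replicates' own summits the shares were 33.3% against 50.7% in replicate 1 and 37.3% against 54.5% in replicate 2. The difference had the same direction in the weaker candidates, 33.8% against 40.5%.

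**Figure D3:**
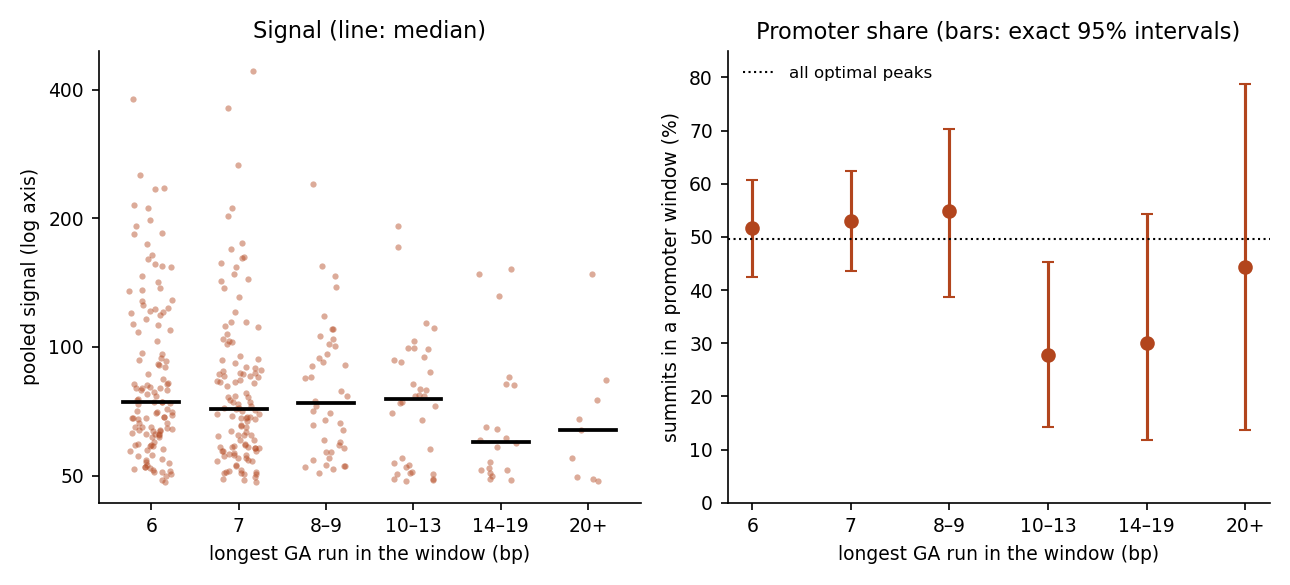
The 348 members by length of the longest GA run (x axis, bp). Left, pooled signal of each peak on a log axis, with medians as lines between 60 and 75.5; right, percentage of summits in a promoter window with exact 95% intervals, 51.6% at 6 bp and 27.8% at 10 to 13 bp, and the 49.6% of all optimal peaks dotted.

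Within the 50 bp on each side that the definition allows, the nearest run covered the summit in 31 members (8.91%), lay within 10 bp in 117 (33.6%) and within 25 bp in 226 (64.9%), with a median distance of 18 bp. In the weaker candidates the same shares were 9.41%, 33.0% and 62.6%, with a median of 19 bp. Both sets were chosen for a run within the same 50 bp, which bounds these distances in each. Runs lay on the lower-coordinate side of 168 summits and on the higher side of 149. Where the summit was upstream of its gene, the run was on the gene's side in 118 of 242 members (48.8%). The GA strand was the sense strand of the nearest gene in 138 members (39.7%, interval 34.5% to 45%) and the antisense strand in 194 (55.7%, 50.4% to 61.0%), and 16 had runs of both orientations. The antisense share was 59.1% (57.0% to 61.2%) in the weaker candidates and 71.2% (57.9% to 82.2%) in the peaks with both sequences, so it was not particular to the members.

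Over all optimal peaks, without regard to the E-box, GA repeats formed a broad hump around summits. They reached 12.5% of peaks per 20 bp bin, 6.71 times the mean of 1.86% in bins more than 300 bp away. The bins above the midpoint between those levels spanned 260 bp. E-boxes reached 7.26% at the summit, 16.4 times their far level of 0.444%, and the same span was 80 bp. In candidates between the optimal list and rank 5000 the repeats reached 5.74%, and beyond rank 5000 they never passed 1.96%. The deposited summit was the exact middle of the interval in 90.1% of optimal peaks.

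**Figure D4:**
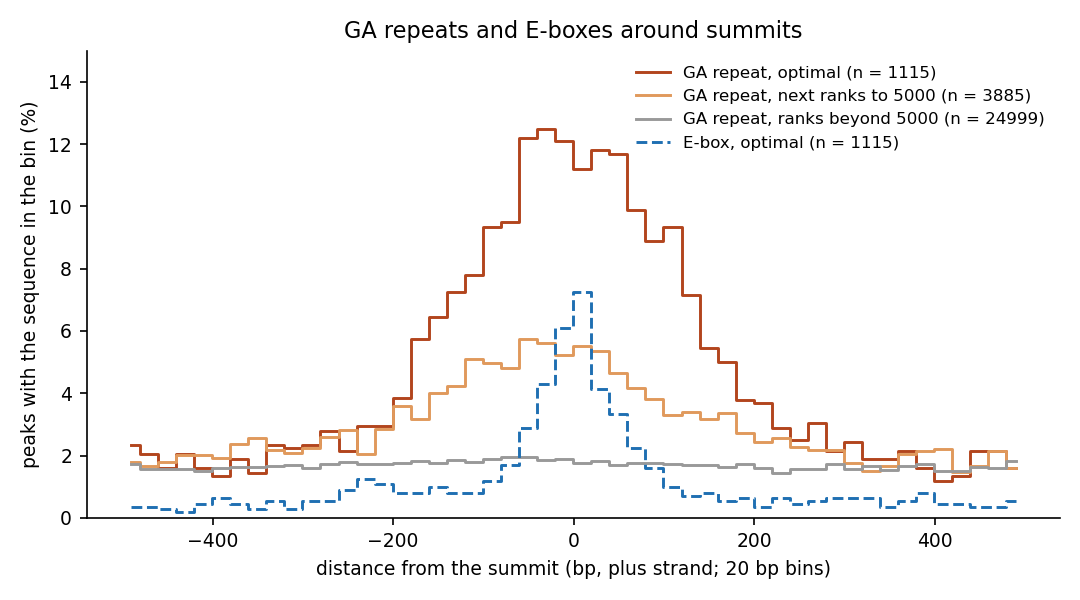
Percentage of peaks with part of a GA repeat, or of an E-box, in each 20 bp bin (y axis) by distance from the summit (x axis, bp). GA repeats in the optimal peaks form a hump 260 bp wide up to 12.5%, next ranks to 5000 reach 5.74% and ranks beyond 5000 stay at or below 1.96%, while E-boxes in the optimal peaks (dashed) form a narrower peak of 80 bp.

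Near misses of the rule had signals like those of the members beside them. The 124 members at the 6 bp minimum had a median signal of 74.4, and the 65 peaks with neither sequence that held 6 bp of the repeat in the shifted frame had 72.8. Peaks with neither sequence but with a run inside 100 bp (159) had 74.7. Peaks limited to 2 units (256) had 67.6 and the 126 without any had 61.9, with a mean G and C content of 45.1%, against 50.3% in the 6 bp members.

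Other sequences were unevenly shared between the members and the 553 peaks with neither sequence. The GATA-type site TGATAA was in 2.30% of the members, against 6.78% (1.88% to 16.5%) of the 59 peaks with both the repeat and the E-box, 8.68% of the peaks with neither and 7.53% of the weaker candidates with the repeat; 9.36% of genome windows hold it. By the replicates' own summits it was in 4.21% of the class against 9.86% in replicate 1, and in 4.02% against 10.3% in replicate 2. The sequence GAGACGCAG was in 65 members (18.7%), and in 18.6% of the peaks with both the repeat and the E-box, against 9.95% of the peaks with neither, 7.48% of the weaker candidates with the repeat and 0.391% of genome windows. In replicate 1 the shares were 21.1% against 10.2% and in replicate 2 15.2% against 6.95%. These motifs were searched on both strands, and GAGACGCAG can overlap a GA repeat by its first bases, as it did in 28 of the 65 members. The other 37 (10.6% of all members, interval 7.60% to 14.4%) held it apart from any run, a share near that of the peaks with neither, while 3.06% of the weaker candidates did. Of all 65 members with GAGACGCAG, 51 had it within 30 bp of a run, some of them overlapping the run. The window at affl-2 printed above holds it near its left end on the opposite strand. Members with it had a median signal of 76.8, against 71.7 without, and 53.8% of them had a summit in a promoter window, against 47.3%.

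Outside the runs, with the runs themselves masked, the hexamers with the largest excess over peaks with neither sequence were GGAGAC (13.2% of members against 7.78%), CGCAGA (15.8% against 11.0%) and CGTCTC (14.9% against 10.8%), which overlap the same longer word. AGAAAA was the most reduced (12.9% against 21.7%). These are the extremes of a ranking of hexamers in the same data and were not tested. Masking a run leaves the bases beside it, and apart from any run the longer word was no more than near the share of the peaks with neither. Downstream of the run on its GA strand, C was the first base in 32.5% of members and in 22.9% of weaker candidates, and G the second base in 45.7% against 29.8%. The E-box-like sequence CACGCG was in 11.5% of the members and 11.0% of the peaks with neither. CACGTG itself was elsewhere in the peak interval, beyond 50 bp from the summit, in 43 members (12.4%) and in 13% of the peaks with neither. Homopolymers of T (TTTTTT) were in 15.8% of the members, 20.3% of the peaks with neither and 34.6% of the weaker candidates, whose mean G and C content was 40.6% against 49.7% in the members.

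Summits of the members were mostly intergenic (230, 66.1%) or intronic (102, 29.3%), with 11 in 5′ UTRs, 2 in 3′ UTRs and 3 in coding exons. Promoter windows held 169 of them (48.6%, interval 43.2% to 54.0%), against 50.1% of the other optimal peaks and 49.6% of all optimal peaks, so that the members were placed like the rest of the list. Among weaker candidates with the same sequence 39.7% were in promoter windows and 8.33% in coding exons. The nearest 5′ end was a median of 877 bp away for members and 845 bp for the other optimal peaks. Chromosome III held 75 members (21.6%, 17.3% to 26.2%), against 15.5% of the other peaks, and chromosome X held 65 (18.7%, 14.7% to 23.2%), against 29.2% (26.0% to 32.6%). Within those other peaks, X held 18.6% (9.69% to 30.9%) of the 59 with both sequences, 27.7% of those with the E-box alone and 30.7% of those with neither. The lower X share was thus not particular to the members. By the replicates' own summits the X share was 21.3% against 29.1% in replicate 1 and 21.4% against 28.5% in replicate 2. Members stood alone slightly more often, with another optimal summit within 1000 bp in 8.33% of them, against 12.4% of the other peaks.

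Members had summits in the promoter windows of 205 protein-coding genes, which is 1.03% of the 19973 annotated, and 16 of these genes also had another optimal peak there. One summit served 2 or more genes in 37 cases, 31 of them pairs on opposite strands. Other optimal peaks were in the promoter windows of 445 genes, and all optimal peaks together reached 634 genes. Each list below stands beside that 1.03% for members, and beside 445 of 19973 genes for other optimal peaks.

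Transcription factors of stress and longevity had a member peak at 5 of 23 genes (21.7%) and another optimal peak at 5. These were hlh-30, the TFEB-like regulator of lysosomes and autophagy (IV, signal 123, rank 186 in replicate 1 and 227 in replicate 2), atf-4 (X, 120, ranks 194 and 250), xbp-1 of the unfolded protein response (III, 101, ranks 233 and 258), hif-1 of the hypoxia response (V, 55.4, ranks 819 and 1288) and atf-7 (III, 49.1, ranks 1762 and 1231). The repeat covered the summit at hlh-30, 314 bp upstream of its 5′ end. Of these, hlh-30 and hif-1 were also the 2 of 41 basic helix-loop-helix genes with a member, and another optimal peak was at 1. None of the Mad-like, Max-like and Mondo-like genes mdl-1, mxl-1, mxl-2, mxl-3 and mml-1 had one, and hlh-30, listed with them, made that count 1 of 6. Innate immune and p38 signalling genes had 3 of 24, nipi-3, hlh-30 and atf-7, and another optimal peak at 4 (16.7%).

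Autophagy genes had a member at 4 of 28 (14.3%) and another optimal peak at 2. Those with members were epg-7, a scaffold protein of selective autophagy (signal 114, ranks 192 and 387), the Atg8-family genes lgg-1 (95, ranks 501 and 241, an 11 bp run) and lgg-2 (74.2, ranks 761 and 452), and atg-18 (54.1, ranks 1095 and 1945). Proton pump subunits had 2 of 21, vha-12 (80.1) and vha-13 (56.6), and another optimal peak at 1. Insulin and TOR signalling had 2 of 23, the kinase gene akt-2 (85.2) and the 14-3-3 gene par-5 (76.3), and another optimal peak at 2. Translation factors had 2 of 38, eef-1A.2 (241) and eef-1A.1 (57.2), both genes of elongation factor 1A, and another optimal peak at 2.

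Ribosomal protein genes had a member at 1 of 81, rps-1, while other optimal peaks were at 11 (13.6%). Nuclear hormone receptor genes had members at 5 of 274 (1.82%) and other optimal peaks at 11, with nhr-1 (X, 154, ranks 127 and 102), nhr-58 (V, 102, ranks 271 and 365) and nhr-68 (V, 64.8, ranks 382 and 14468) the strongest. Chaperones had 1 of 60, dnj-13 (104), and other optimal peaks at 4 (6.67%). No member summit was in the promoter windows of the 175 cuticle collagen, 96 homeobox, 25 EGF, Ras and MAP kinase, 27 Wnt, 145 neuropeptide and insulin-like peptide, 73 potassium channel or 40 axon guidance genes listed. Other optimal peaks were there at 0, 1, 1, 3, 1, 0 and 0 genes. With lists this short, the exact upper limits for 0 were between 2.09% for collagens and 13.7% for EGF, Ras and MAP kinase genes. These counts cover the listed genes and their promoter windows only. By the nearest 5′ end, members were assigned to 2 of these collagen genes and 3 of these EGF, Ras and MAP kinase genes, and to no gene of the other lists in this group. Of the 7 optimal peaks within 20000 bp of mdl-1, 1 was a member, and no member lay within that distance of klu-1 and unc-119, which the labels also name, or of eor-1.

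The share of members among the strongest regions of both replicates was near that of the whole list. It was below the shares of the E-box peaks and above that of peaks with neither sequence. Of the 348 members, 224 (64.4%, interval 59.1% to 69.4%) overlapped one of the strongest regions in both replicate lists, which is the 64.3% of all optimal peaks. The share was 81.4% (69.1% to 90.3%) for peaks with both sequences, 74.8% (67.2% to 81.5%) for the E-box alone and 59.5% (55.3% to 63.6%) for neither. The members' interval overlapped each of these. A further 81 members (23.3%) were among the strongest of replicate 1 only, 36 (10.3%) of replicate 2 only and 7 (2.01%) of neither. Median ranks of the members were 540 in replicate 1 and 587.5 in replicate 2, and 540 and 559 for the other optimal peaks. Across the 348 members, chosen on signal pooled from these libraries, the replicate signals had a Spearman rho of 0.527, with 0.749 over the 59 peaks with both sequences, 0.739 over 155 with the E-box alone and 0.543 over 551 with neither. Members were weaker than E-box peaks, as given above, and the part of signal in this was not tested.

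The tail lay in replicate 2. Ranks beyond 5000 were found for 17 members in replicate 2 (4.89%) and 2 in replicate 1 (0.575%), against 29 (3.78%) and 1 (0.130%) of the other optimal peaks. By the ratio of the ranks, the largest gaps in favour of replicate 1 were at M106.3 (rank 385 in replicate 1 and 26199 in replicate 2), atf-7 (433 and 17637, an intron peak apart from its promoter peak), the H12C20.7 and nhr-68 promoter (382 and 14468), lin-42 (258 and 8804, a weaker peak of signal 77.0) and Y37D8A.4 (590 and 18416). In favour of replicate 2 they were at gpb-1, the G protein beta gene (6533 and 382), adah-1 (5877 and 539), ire-1, the sensor of the unfolded protein response (3335 and 356), the Y95B8A.6 and pde-6 pair (2929 and 326) and din-1, a corepressor gene (2627 and 319). All 10 had pooled signals between 49.9 and 77.0. The runs at gpb-1 and din-1 were 18 bp long.

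**Figure D5:**
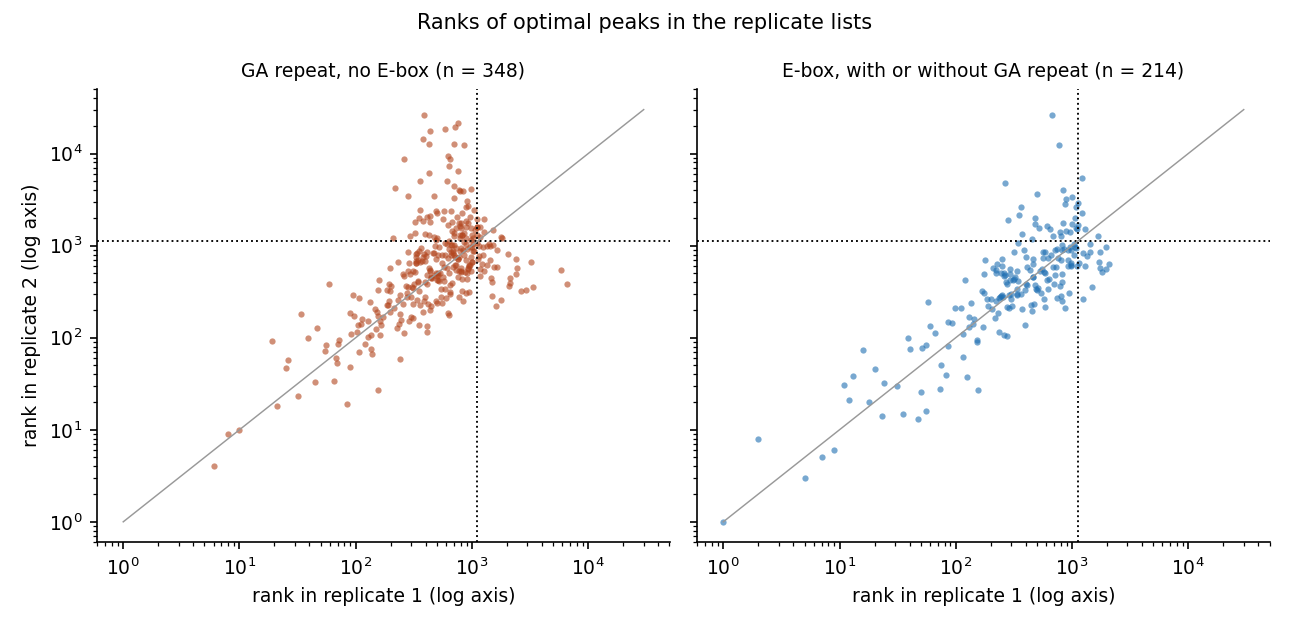
Rank in replicate 2 (y axis, log) against rank in replicate 1 (x axis, log) for the 348 members (left) and the 214 peaks with an E-box (right); dotted lines mark the rank equal to the number of optimal peaks and the grey line equal ranks. In the left panel 17 members lie beyond rank 5000 in replicate 2 and 2 in replicate 1.

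The summit that defines a member moved between lists. The overlapping region of replicate 1 had its summit a median of 10 bp from the pooled one (upper quartile 31 bp), and that of replicate 2 20.5 bp (52.5 bp). By the replicate's own summit, 301 members (86.5%) kept a GA repeat without an E-box in replicate 1, 257 (73.9%) in replicate 2 and 223 (64.1%) in both. An E-box entered the window of 6 members in replicate 1 and of 15 in replicate 2. The 32 members whose nearest run lay 41 to 50 bp from the summit were among the strongest regions of both replicates in 43.8% of cases, with a median signal of 67.8.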

How the data were processed

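The deposited ce11 files hold 30000 relaxed candidate regions each for replicate 1, replicate 2 and the pooled data, and an optimal list of 1115 peaks that, per the accompanying text files, passed the irreproducible discovery rate. Each region's signal was assigned by the authors' caller, and scales differ between lists. Aligner, caller, versions and the threshold: not given in the sources used here. The ce10 lists and any control library were not used here. The summit was the interval start plus the offset that the authors deposited.

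Summit windows were read from the RefSeq sequence, and genes from Ensembl release 115, both of WBcel235, with Python 3.11.15, numpy 2.4.6, pandas 2.3.3 and scipy 1.17.1. Regions were ranked by signal, and a replicate region matched a peak at 1 bp of overlap, the best rank being taken. Depth is unknown, and 1 group of 2 replicates gave no test, so results are counts, medians and exact 95% intervals of counting. Neighbouring peaks are not independent. Named were the 20 members of highest signal, the 10 with the longest run, the 5 with the largest rank ratio in each direction, up to 3 genes per list of highest signal (others where a count was 5 or fewer), mdl-1, eor-1, klu-1 and unc-119. Members near the limit of the list were named after their values were seen. The members, the 18 gene lists and the motifs were chosen with earlier results of these data known. The code was tested on simulated windows. Alternatives changed the window, the minimum repeat, the E-box, the peak set, the promoter window, the overlap and the replicate whose strongest regions a member had to overlap.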

Additional observations from a re-analysis of the deposited data

How the results depend on the processing

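Across the alternatives the median run stayed at 7 bp unless the minimum repeat changed (6 bp with 2 units, 11 bp with 4, 13 bp with 5), and the promoter share stayed near 48.6% except with 4 units (36.7%), 5 units (28.3%) and promoter windows of 500 bp (34.8%) or 2000 bp upstream (68.4%). The number of peaks, 348, was 203 with a window of 25 bp, 775 with 2 units, 90 with 4, 53 with 5 and 174 in the stronger part of the list. The number of genes, 205, was 126 with 25 bp, 453 with 2 units, 40 with 4, 16 with 5, 94 in the stronger part and 323 by the nearest 5′ end. Runs within 10 bp of the summit, 33.6%, made up 60.1% with 25 bp, 22.6% with 100 bp and 52.8% with 2 units. The share of both replicates, 64.4%, was 69.5% with 25 bp, 58.5% with 5 units, 93.1% in the stronger part, 58.9% with summits within 100 bp and 84.5% with the 2000 strongest regions. The median signal, 72.4, was 67.6 with 5 units and 96.4 in the stronger part. Most of these shifts follow from the altered definition itself. Keeping only members among the strongest regions of replicate 2 left 260 peaks, 155 genes and a median pooled signal of 81.7. Keeping only those among the strongest of replicate 1 left 305 peaks, 180 genes and a median of 76.8. Both settings still used the summits and signal of the pooled data, so neither leaves a replicate out. No paired analysis was possible because the series has 1 group. Shares in small classes have wide intervals, and depth, mappability of long repeats and antibody background were not measured.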

Other observations

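Annotated noncoding RNA genes or pseudogenes lay near the summits of some members, and noncoding RNA genes also near those of other optimal peaks. Within 100 bp of a summit, an annotated gene of the class ncRNA lay at 68 members and 120 other optimal peaks, a tRNA gene at 7 and 20, a snoRNA gene at 4 and 22, an snRNA gene at 2 and 11, and a pseudogene at 2 and 0. These counts carry no test and stand beside totals of 348 and 767 peaks. The share of all genome windows near such genes was not counted, so nothing is read from them about the members.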
